A study of Mus musculus with 6 samples.

Results

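The genes described here are those of the constitutive proteasome, the protease complex that degrades ubiquitin-tagged proteins, together with its activators, its inhibitor and its assembly factors. They were taken from the deposited gene table as protein-coding rows whose name begins with Psm, a letter from a to g and a number, leaving out the immunoproteasome subunits Psmb8, Psmb9 and Psmb10. The rule gave 47 genes of 55487 rows, or of 21936 protein-coding rows. They comprised 8 genes of the core alpha ring, 8 of the core beta ring, 6 ATPases and 11 non-ATPase subunits of the regulatory particle, 5 activators, 1 inhibitor, 4 core assembly factors and 3 regulatory particle assembly factors. The remaining gene, Psmc3ip, fits the naming pattern only: its product is a partner of the meiotic recombinases and no part of the proteasome.

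RNA was sequenced in bulk from blood stem cells with long-term repopulating capacity (LT-HSCs), sorted from mouse bone marrow as Lineage-, Sca-1+, c-Kit+, Flk2- and CD34-. All mice were wild type and had not been irradiated. The saline group, given the vehicle, had 3 libraries, and the carnosine group, given the dipeptide of beta-alanine and histidine, had 3. The labels give no dose or duration, and neither how many mice were used nor their age or sex. Nothing in the labels says that libraries of a group came from separate mice, so p-values measure only the spread between these libraries, which may be technical.

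The proteasome is built from a barrel-shaped core particle capped by regulatory particles. The outer alpha rings of the core control entry to the chamber, and 3 kinds of beta subunit in the inner rings cut peptide bonds. The regulatory particle binds ubiquitin chains, removes them, and uses its ring of ATPases to unfold the substrate and thread it into the core, while separate activators open the core without ATP. Blood stem cells are known for a low rate of protein synthesis and for a sensitivity to the build-up of misfolded proteins.

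Totals were 10304539 to 13251332 counts per library, and the first principal component, with 48.2% of the variance, separated the groups. The 12 stem cell markers examined were all detected, with a summed level of 1152 to 1183 CPM (counts scaled to library size) with saline and 1143 to 1298 with carnosine, and 1 of them, Mecom, was called higher. The transcripts of the 2 surface proteins that the sort excluded were abundant, Flt3 (Flk2) at 764 to 831 CPM and Cd34 at 836 to 884 CPM. The 14 lineage markers used summed to 445 to 454 CPM with saline and 405 to 411 with carnosine, with 2 called higher (Hba-a1 and Hbb-bs) and 4 lower (Cd4, Ighm, Itgam and Elane), and none was at 0 in all libraries. The fewest counts over the 6 libraries were 2 for Ly6g, 22 for Ms4a1 and 53 for Cd3e, markers of neutrophils, B cells and T cells. S100a8 (69) and Cd8a (74) were also low. Other markers of these lineages were not: Ighm held 20461 counts and Cd79a 460 (B cells), and Cd4 held 535 (T cells). The myeloid markers Itgam and Elane held 2882 and 1936. The groups did not overlap in the sum of the lineage markers, most of which was Ighm, at a mean of 324 CPM with saline and 266 with carnosine. The markers moved in opposite directions. Log2 fold changes were 1.72 for Hba-a1 and 2.07 for Hbb-bs, against -0.62 for Itgam, -0.62 for Elane, -0.43 for Cd4 and -0.29 for Ighm. The part of other cells in the results below was not tested.

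In LT-HSCs from carnosine-treated mice, transcripts of the proteasome were slightly more abundant. Of the 46 genes that passed the filter on low counts, 12 rose and 0 fell at an adjusted p under 0.05 (edgeR quasi-likelihood test over 15298 genes). Over all genes tested, 9.51% were called higher and 8.39% lower, so the share called higher, 26.1%, was above the background. That background was not matched for level or precision. The 46 genes had a median log2 CPM of 6.37, against 4.62 over all genes tested. The median standard error of their log2 fold changes was 0.06, against 0.10. Small changes are called, and groups separate, more easily in such genes. At an unadjusted p under 0.05, 19 genes were higher and 1, Psmd8, lower. With DESeq2 9 were called higher and 0 lower, with limma-voom 12 and 0, and with limma on log2(FPKM + 1) 11 and 0. The rises were small: the median log2 fold change of the 12 genes was 0.21, against a median size of 0.32 over all called genes. Of the 46, 38 lay above 0 and 8 below, and their median log2 fold change was 0.12, against 0.00 over all genes tested. In 20 of them every carnosine library lay above every saline library, against 19.7% of all genes, and in 1, Psmd8, every carnosine library lay below, against 19.0%. Together the 47 genes took 0.381%, 0.383% and 0.382% of the counts in saline libraries 1 to 3, and 0.416%, 0.417% and 0.409% in carnosine libraries 1 to 3. In bulk RNA, fewer cells of a type and less RNA per cell cannot be told apart, and the same holds for more.

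**Figure D1:**
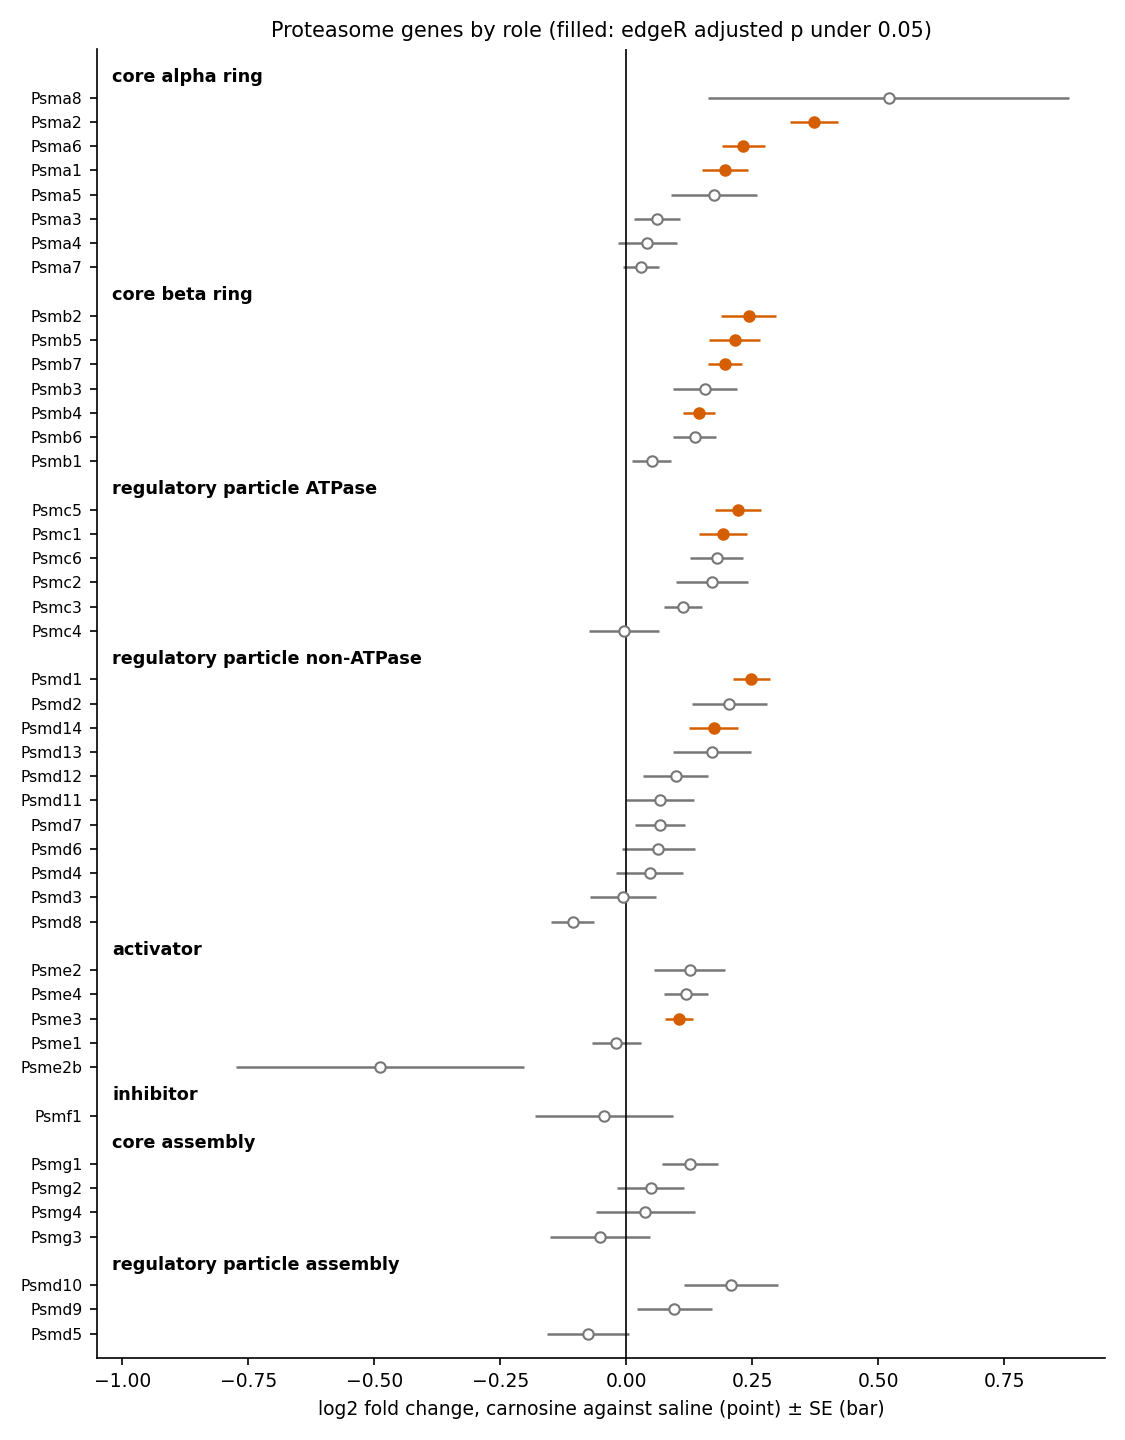
Log2 fold change of each proteasome gene tested, carnosine against saline, on the horizontal axis, with 1 standard error as bars, grouped by role on the vertical axis. Filled points passed an adjusted p under 0.05. All 15 core genes lie to the right of 0. The ATPases, the non-ATPase subunits, the activators and the assembly factors lie on both sides, and the inhibitor, a single gene, lies to the left.

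The count of 12 depended on each library. Without saline library 1, 2 or 3 it was 8, 4 or 7, and without carnosine library 1, 2 or 3 it was 5, 8 or 7. The 4 genes called in every one of these fits were Psma2, Psmd1, Psmb7 and Psma6. Levels below are CPM on the scale of the trimmed mean of M-values (TMM), listed for libraries 1 to 3 of each group.

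**Figure D2:**
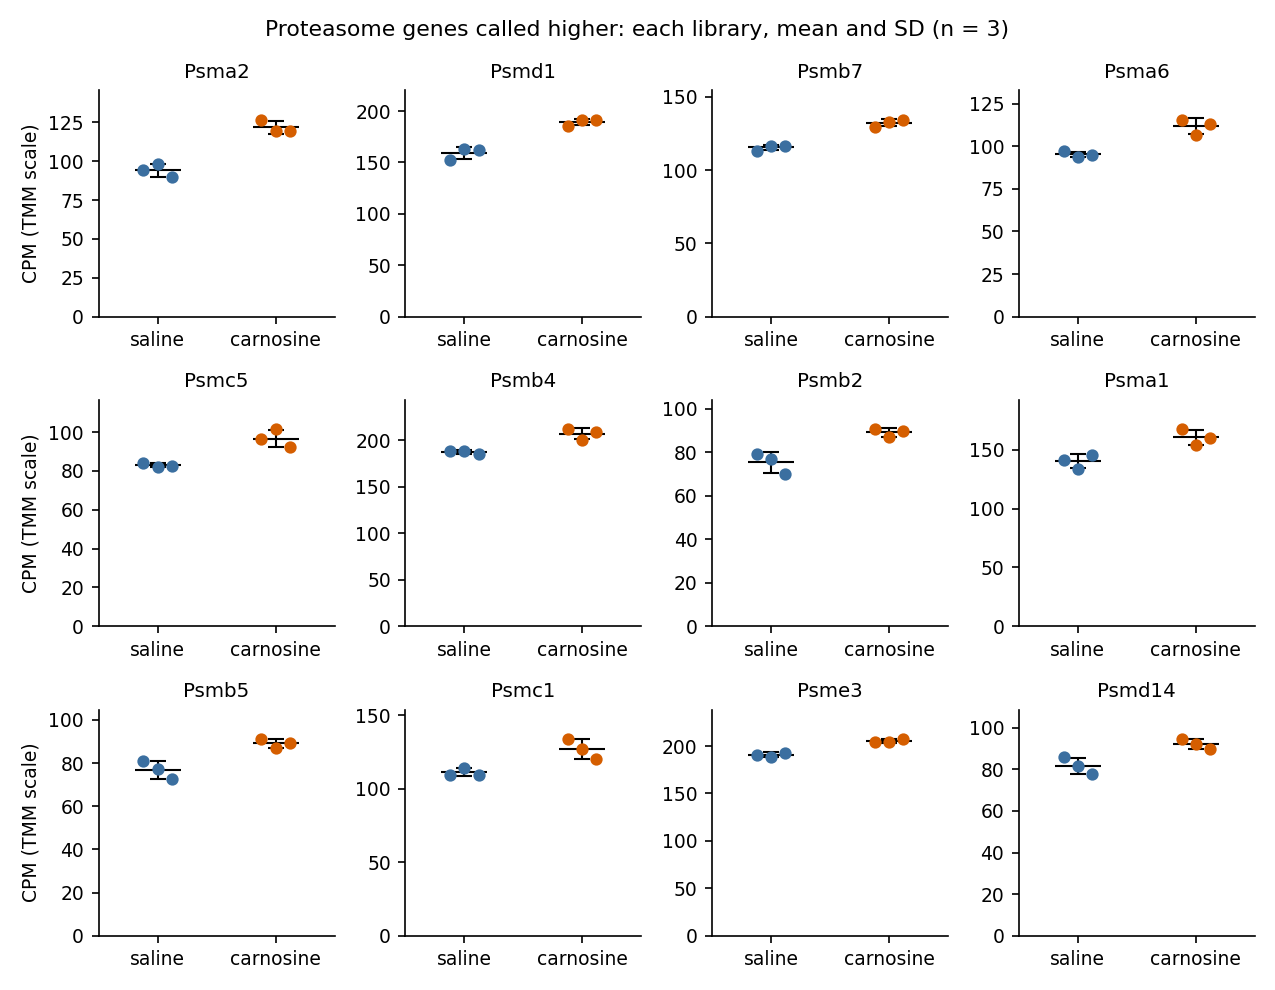
Level in CPM (TMM scale, vertical axis from 0) of the 12 proteasome genes called higher, with a point for each library, the mean as a horizontal line and the SD as bars (n = 3 per group). In each panel the 3 carnosine libraries lie above the 3 saline libraries, and the log2 fold change is largest for Psma2, at 0.37.

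The alpha subunits form the outer rings of the core, whose tails act as its gate. Of 8 genes tested, 3 rose, all 8 lay above 0, and the median log2 fold change was 0.19. Psma2 (chromosome 13, 14613240 to 14674236, plus strand, GRCm38) measured 94.0, 98.5 and 89.6 CPM with saline and 126, 119 and 119 CPM with carnosine. The lowest carnosine library lay well clear of the highest saline library, and the log2 fold change of 0.37 (SE 0.05, adjusted p = 0.00241) was the largest among the called proteasome genes. Psma6 (chromosome 12, 55384222 to 55418454, plus strand), which had the highest deposited level per length of the alpha subunits, measured 97.1, 93.7 and 94.8 CPM with saline and 115, 107 and 113 CPM with carnosine. Its groups did not overlap either (log2 fold change 0.23, SE 0.04, adjusted p = 0.0106).

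Psma1 measured 141, 134 and 145 CPM with saline and 167, 154 and 160 CPM with carnosine. It rose by a log2 fold change of 0.20 (SE 0.05, adjusted p = 0.0250), but the call was lost without saline 1 or 2 or without carnosine 1 or 3, with an adjusted p of up to 0.0834. The other ubiquitous alpha genes did not pass: Psma5 had a log2 fold change of 0.17 (adjusted p = 0.202), Psma3 0.06 (adjusted p = 0.405), Psma4 0.04 (adjusted p = 0.659) and Psma7 0.03 (adjusted p = 0.606). Reads of Psma5 may be divided with its processed pseudogene Psma5-ps, which held 253, 259 and 334 counts with saline and 308, 283 and 372 with carnosine. Psma5 itself held 445, 391 and 564 counts with saline and 622, 460 and 576 with carnosine. With both rows summed the log2 fold change was 0.15 (adjusted p = 0.0920). Psma8, the germ cell counterpart of Psma7, was near the bottom of the range with 46, 57 and 28 counts per saline library and 70, 40 and 95 per carnosine library. Its log2 fold change of 0.52 had an SE of 0.36 (adjusted p = 0.357), and the groups overlapped. The principal transcripts of Psma7 and Psma8 were 79.6% identical over 525 aligned bases.

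The beta subunits form the inner rings, where Psmb5 carries the chymotrypsin-like site, Psmb6 the caspase-like site and Psmb7 the trypsin-like site. Of 8 genes, 7 could be tested, 4 rose, all 7 lay above 0, and the median log2 fold change was 0.16. Psmb7 (chromosome 2, 38588036 to 38644087, minus strand) measured 113, 116 and 117 CPM with saline and 130, 133 and 134 CPM with carnosine. The spread within each group was small beside the gap between them (log2 fold change 0.20, SE 0.03, adjusted p = 0.00874). Psmb7 shares 405 exon bases with Nek6 on the opposite strand, a gene with 393 to 718 counts per library, and no source used here gives the strand setting of the counting.

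Psmb5 measured 80.7, 77.1 and 72.5 CPM with saline and 91.1, 86.8 and 89.3 CPM with carnosine, with no overlap (log2 fold change 0.22, SE 0.05, adjusted p = 0.0270). Its call held only in the fit without saline 1 among the fits that left out a library, with an adjusted p of up to 0.0859 in the other 5. A gene length offset also ended it, as did the replicate number as a block (adjusted p = 0.0527). Psmb6, the remaining proteolytic subunit, measured 105, 99.1 and 106 CPM with saline and 115, 115 and 110 CPM with carnosine. Its groups did not overlap but it did not pass (log2 fold change 0.14, adjusted p = 0.0650).

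Among the beta subunits without a proteolytic site, Psmb4 was the proteasome gene with the highest level per length. It measured 188, 188 and 185 CPM with saline and 211, 200 and 209 CPM with carnosine (log2 fold change 0.14, SE 0.03, adjusted p = 0.0210). That call was lost without any library but carnosine 2 (adjusted p up to 0.0761). It was also lost with DESeq2 and with the replicate number as a block (adjusted p = 0.0596). Psmb2 measured 79.2, 76.6 and 70.1 CPM with saline and 90.4, 86.9 and 89.8 CPM with carnosine (log2 fold change 0.24, SE 0.05, adjusted p = 0.0221). Its call was lost without saline 2, carnosine 1 or carnosine 3 (adjusted p up to 0.0703). Psmb3 (log2 fold change 0.16, adjusted p = 0.137) and Psmb1 (0.05, adjusted p = 0.409) did not pass. Psmb11, the beta subunit of thymic epithelium, had 2 counts in saline 3 and 0 in every other library, where a count of 0 allows up to 0.226 to 0.291 CPM (3 counts, counting error only).

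The ATPases form the ring that unfolds substrates. Of 6 tested, 2 rose, 5 lay above 0, and the median log2 fold change was 0.17. Psmc5 (chromosome 11, 106256154 to 106263120, plus strand) measured 84.1, 82.1 and 82.6 CPM with saline and 96.3, 101 and 92.5 CPM with carnosine. Its groups were clearly apart (log2 fold change 0.22, SE 0.05, adjusted p = 0.0166), though the call was lost without saline 2 or saline 3 (adjusted p up to 0.0530). Psmc1 measured 109, 114 and 110 CPM with saline and 134, 127 and 120 CPM with carnosine (log2 fold change 0.19, SE 0.05, adjusted p = 0.0321). That call was lost without any library but carnosine 3 (adjusted p up to 0.0928) and with the replicate number as a block (adjusted p = 0.0622).

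Psmc6 (log2 fold change 0.18, adjusted p = 0.0541) and Psmc3 (0.11, adjusted p = 0.0812) missed the threshold with groups that did not overlap. Psmc6 passed when carnosine 3 was left out (adjusted p = 0.0363) and with a gene length offset (adjusted p = 0.0484). Psmc3 shares 215 exon bases with Slc39a13 on the opposite strand, a gene with 151 to 241 counts per library. Psmc2 (0.17, adjusted p = 0.147) had overlapping groups. Psmc4 was the exception among the ATPases, at 81.0, 93.8 and 89.7 CPM with saline and 83.7, 94.2 and 86.0 CPM with carnosine, a log2 fold change of -0.00 (SE 0.07, adjusted p = 0.971).

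The non-ATPase subunits recognise and remove ubiquitin chains and hold the particle together. Of 11 tested, 2 rose, 9 lay above 0, and the median log2 fold change was 0.07. Psmd1 (chromosome 1, 86064387 to 86139151, plus strand), a large scaffold subunit, measured 152, 164 and 162 CPM with saline and 186, 191 and 191 CPM with carnosine. The groups were widely apart (log2 fold change 0.25, SE 0.04, adjusted p = 0.00437). It shares exon bases with Gm21972 on the same strand, which held 8 to 20 counts per library. Psmd14, the deubiquitinase that cuts chains off the substrate, measured 85.7, 81.8 and 77.9 CPM with saline and 94.6, 92.1 and 90.0 CPM with carnosine. It was the call closest to the threshold (log2 fold change 0.17, SE 0.05, adjusted p = 0.0467) and was kept only without saline 1 among the fits that left out a library (adjusted p up to 0.134 in the other 5). It was also lost with upper quartile scaling, library totals, no filter, DESeq2 and both fits on FPKM. The replicate number as a block ended it too (adjusted p = 0.0618).

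Psmd2, the other large scaffold subunit, varied more between libraries, at 160, 167 and 192 CPM with saline and 195, 214 and 190 CPM with carnosine. Its groups overlapped through saline 3 (log2 fold change 0.20, SE 0.07, adjusted p = 0.103), and it passed without that library (adjusted p = 0.0301). Psmd7, the partner of Psmd14, had the highest deposited level per length of the role, with 102, 109 and 103 CPM with saline and 103, 112 and 113 CPM with carnosine (log2 fold change 0.07, adjusted p = 0.394). Psmd8 was the gene whose carnosine libraries were all lower, at 117, 126 and 126 CPM with saline and 115, 112 and 115 CPM with carnosine. It did not pass (log2 fold change -0.11, SE 0.04, adjusted p = 0.132). The other subunits, Psmd3, Psmd4, Psmd6, Psmd11, Psmd12 and Psmd13, had log2 fold changes of -0.01 (Psmd3) to 0.17 (Psmd13), with adjusted p of 0.170 or more. Psmd13 shares 342 exon bases with Sirt3 on the opposite strand, a gene with 872 to 1267 counts per library.

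The activators bind the ends of the core in place of the regulatory particle. Psme3, which forms the nuclear activator ring, was the only one of 5 called. It measured 191, 188 and 193 CPM with saline and 204, 204 and 207 CPM with carnosine, with very little spread (log2 fold change 0.10, SE 0.03, adjusted p = 0.0408). No fit that left out a library called it (adjusted p up to 0.119). The call was also lost with upper quartile scaling, no filter, the replicate number as a block (adjusted p = 0.0934) and DESeq2. Psme4, the large nuclear activator, had a log2 fold change of 0.12 (adjusted p = 0.102), also without overlap.

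The interferon-inducible pair Psme1 and Psme2, which form 1 ring, did not pass. Psme1 measured 165, 151 and 153 CPM with saline and 153, 162 and 148 CPM with carnosine (log2 fold change -0.02, adjusted p = 0.814), and Psme2 25.4, 26.0 and 24.1 CPM with saline and 27.5, 28.9 and 26.1 CPM with carnosine (0.13, adjusted p = 0.258). The groups overlapped for Psme1 and did not for Psme2. Psme2b, a copy of Psme2, held 23, 21 and 20 counts with saline and 12, 19 and 17 with carnosine (log2 fold change -0.49, SE 0.29, adjusted p = 0.281). Its transcript was 99.4% identical to that of Psme2 over 794 aligned bases, so the division of reads between them is uncertain. Psme2b also shares 41 exon bases with 9930111J21Rik1 on the same strand, a gene with 66 to 211 counts per library. The inhibitor Psmf1, which blocks access to the core, measured 35.1, 38.8 and 28.9 CPM with saline and 27.9, 36.3 and 35.5 CPM with carnosine, with fully overlapping groups (log2 fold change -0.04, adjusted p = 0.857).

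Of the 7 assembly factors 0 were called with edgeR, 0 reached an unadjusted p under 0.05, and 0 were called with DESeq2 or limma. Their median log2 fold change was 0.05. The median SE of their log2 fold changes was 0.08, against 0.05 for the core genes. Psmg1 to Psmg4 are chaperones of the alpha ring. Psmg4, the highest of them per length, measured 19.6, 20.01 and 22.1 CPM with saline and 19.1, 20.8 and 23.5 CPM with carnosine (log2 fold change 0.04, adjusted p = 0.828). Psmg1 had groups that did not overlap, at 32.0, 30.9 and 31.5 CPM with saline and 34.6, 34.7 and 33.8 CPM with carnosine (0.13, adjusted p = 0.162). Psmg2 (0.05, adjusted p = 0.661) and Psmg3 (-0.05, adjusted p = 0.761) differed little.

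Psmd5, Psmd9 and Psmd10 are chaperones of the ATPase ring. Psmd10, the highest of these per length, measured 19.1, 23.3 and 20.6 CPM with saline and 24.5, 25.7 and 22.7 CPM with carnosine. Saline 2 lay above carnosine 3, and it did not pass (log2 fold change 0.21, SE 0.09, adjusted p = 0.169). Psmd9 (0.10, adjusted p = 0.418) and Psmd5 (-0.08, adjusted p = 0.566) did not pass either. Psmc3ip, matched by name alone, had a log2 fold change of 0.00 (adjusted p = 0.999).

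Summed over each role, the difference was largest for the core and smallest for the assembly factors of the regulatory particle and the inhibitor. These sums are descriptions with no test, and each is weighted to its most abundant genes. The alpha ring summed to 638 ± 7.55 CPM (SD, n = 3) with saline and 717 ± 19.3 CPM with carnosine, 12.4% higher. The beta ring went from 745 ± 10.4 to 829 ± 13.6 CPM, 11.3% higher, and the ATPases from 579 ± 8.38 to 641 ± 16.5 CPM, 10.7% higher. In all 3 of these roles the libraries of the groups did not overlap.

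The non-ATPase subunits summed to 1131 ± 26.3 CPM with saline and 1214 ± 26.3 CPM with carnosine, 7.38% higher, and the activators to 458 ± 10.4 and 480 ± 8.504 CPM, 4.69% higher. Core assembly factors summed to 97.5 ± 1.66 and 101 ± 3.54 CPM, and regulatory particle assembly factors to 114 ± 5.44 and 116 ± 7.35 CPM. The inhibitor stood at 34.2 ± 5.02 CPM with saline and 33.1 ± 4.63 CPM with carnosine. For the last 3 the groups overlapped. Whether the roles differed from each other in their response was not tested.

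**Figure D3:**
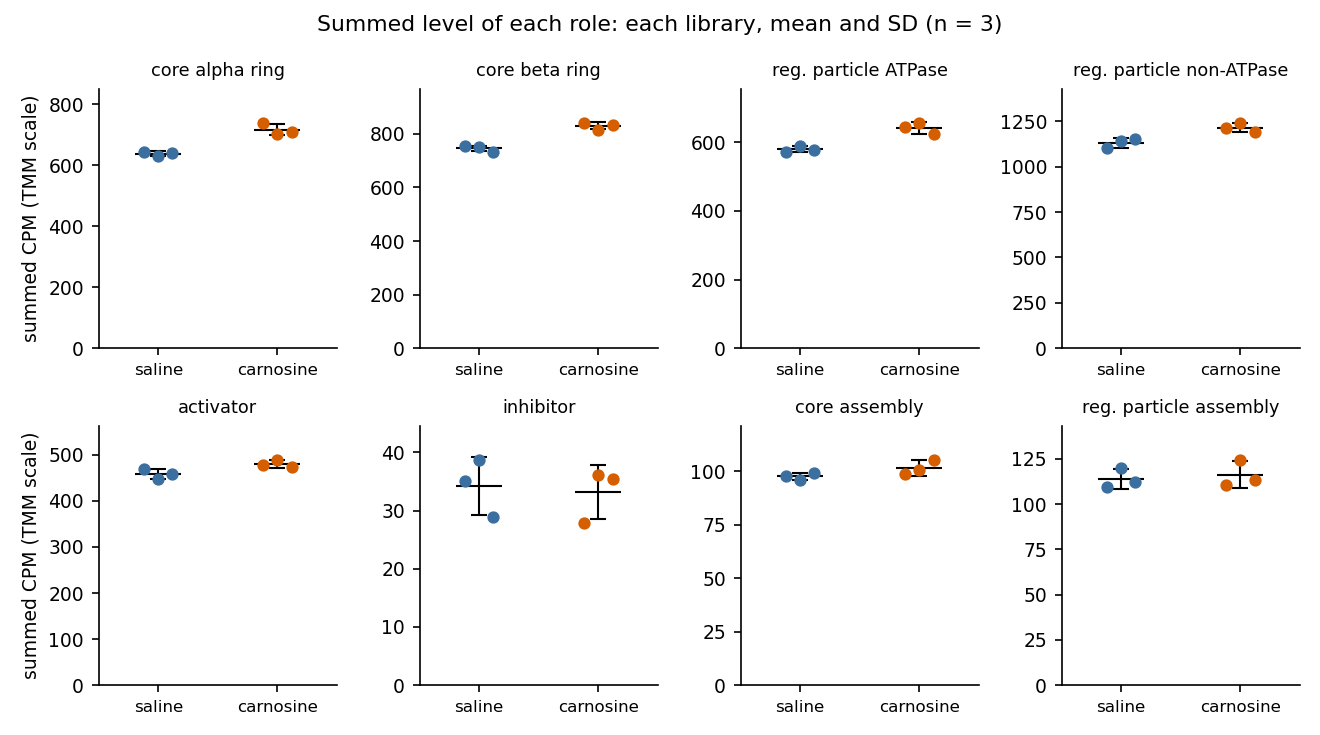
Summed level of the genes of each role in CPM (TMM scale, vertical axis from 0), with a point for each library, the mean as a horizontal line and the SD as bars (n = 3 per group). The groups stand apart for both core rings, both parts of the regulatory particle and the activators, and overlap for assembly factors and the inhibitor.

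Levels can be set between genes only per length. In the deposited FPKM, fragments scaled to gene length and library size, Psmb4 was highest at a mean of 73.9 over the 6 libraries, followed by Psmc5 at 55.9, Psmb5 at 54.4, Psma6 at 54.2 and Psme3 at 53.4. Lowest of the genes that passed the filter were Psma8 at 1.01 and Psme2b at 1.96. The inhibitor Psmf1 stood at 3.26 and the assembly factors between 4.01 (Psmd9) and 27.98 (Psmg4). Apart from Psma8 and Psmb11, the lowest core or regulatory particle subunit was Psmd11 at 6.25. Psmd9 and Psmg3 (4.22) lay below it, and the other assembly factors lay within the range of the subunits.

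The order of levels depended on the length used. For 46 of the 47 genes, the length behind the FPKM equalled the sum of all distinct exons annotated in GENCODE M21, with overlapping exons counted repeatedly. It was 1.0 to 5.89 times the length of the principal transcript, with a median of 2.52. For Psme1 it came to 6549 bases, against 1112 for the principal transcript. Per kilobase of principal transcript, a scale chosen after seeing the data, Psmb4 remained first at 166 CPM per kilobase. Psma7 moved from rank 12 in FPKM to rank 2, Psme1 from rank 19 to rank 3, and Psmc5 from rank 2 to rank 17.

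**Figure D4:**
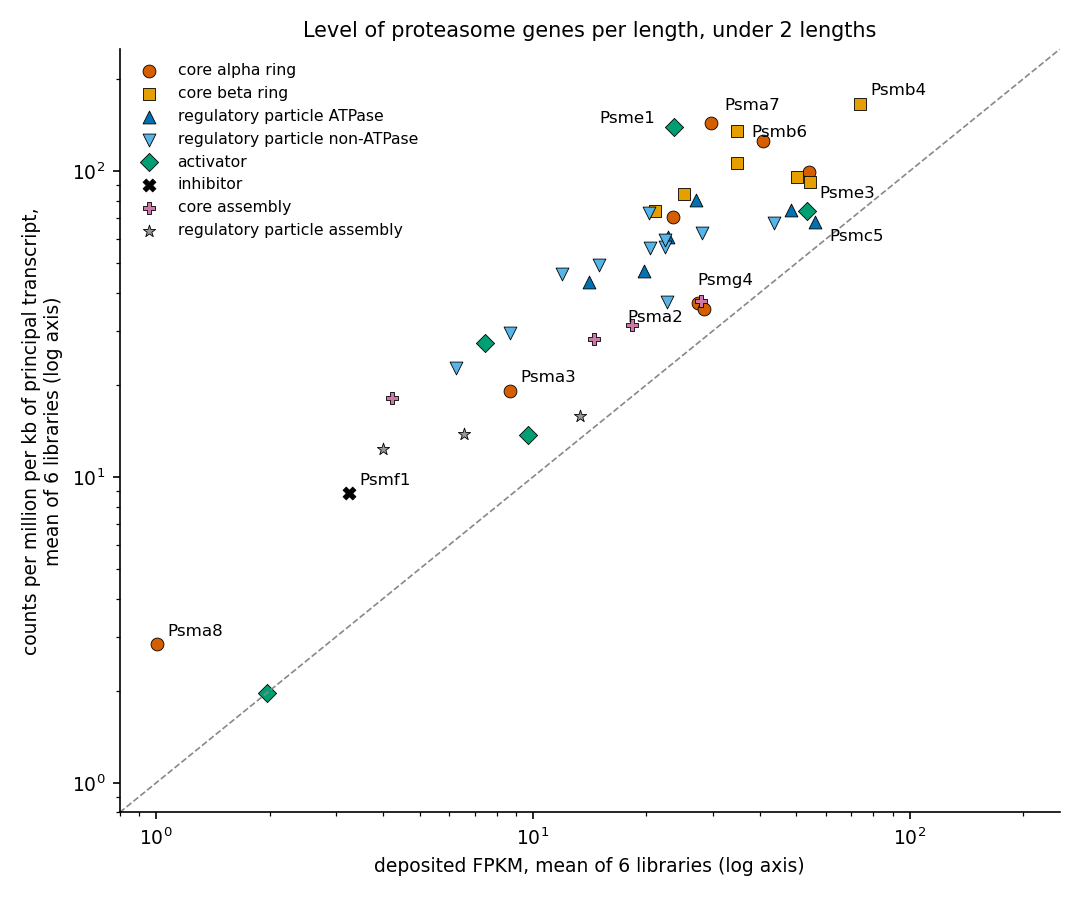
Mean level over 6 libraries of each proteasome gene with a deposited FPKM of at least 0.5, as FPKM (horizontal, log axis) and as CPM per kilobase of principal transcript (vertical, log axis). The dashed line marks equal values. Psmb4 is highest on both axes, and Psme1 and Psma7 lie farthest above the line among the labelled genes.

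During an interferon response, cells replace the proteolytic subunits Psmb5, Psmb6 and Psmb7 by Psmb8, Psmb9 and Psmb10 to form the immunoproteasome. Of these 3, 0 were called with edgeR, DESeq2 or limma, and 1, Psmb9, had an unadjusted p under 0.05. Psmb9 measured 104, 113 and 84.2 CPM with saline and 80.6, 80.8 and 83.8 CPM with carnosine, with saline 3 close to the carnosine libraries (log2 fold change -0.30, SE 0.10, adjusted p = 0.0823). It passed without saline 3 (log2 fold change -0.41, adjusted p = 0.00619). Psmb8 (log2 fold change -0.02, adjusted p = 0.903) and Psmb10 (-0.07, adjusted p = 0.410) had overlapping groups. The constitutive genes were set against their inducible counterparts as a ratio of counts within each library.

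For Psmb6 over Psmb9 the ratio was 1.001, 0.875 and 1.26 with saline and 1.43, 1.43 and 1.32 with carnosine. Every carnosine library was above every saline library (difference of the mean log2 ratios 0.43, exact permutation p = 0.1, two-sided, adjusted 0.15 over 3 ratios), and 0.1 is the smallest p that 3 against 3 libraries allow. Psmb7 over Psmb10 was 1.52, 1.71 and 1.70 with saline and 1.87, 1.98 and 2.08 with carnosine, also without overlap (difference 0.27, exact permutation p = 0.1, adjusted 0.15). For Psmb5 over Psmb8 the ratio was 0.521, 0.450 and 0.407 with saline and 0.493, 0.537 and 0.587 with carnosine. Here saline 1 lay among the carnosine libraries (difference 0.23, exact permutation p = 0.2, adjusted 0.2).

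**Figure D5:**
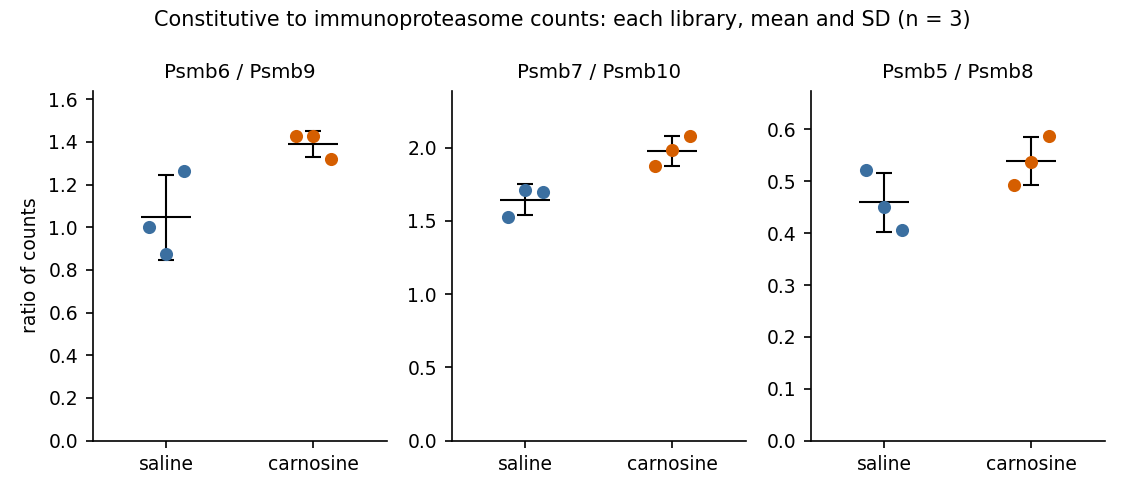
Ratio of the counts of each constitutive proteolytic subunit to those of its immunoproteasome counterpart (vertical axis from 0), with a point for each library, the mean as a horizontal line and the SD as bars (n = 3 per group). The groups do not overlap for Psmb6 over Psmb9 and Psmb7 over Psmb10, and overlap for Psmb5 over Psmb8.

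Other genes of the pathway did not share 1 direction: of 35 tested outside the naming rule, 6 rose and 5 fell, with a median log2 fold change of 0.02. Of 11 proteins that bind the proteasome or help to build it, 2 rose and 1 fell. Usp14, a deubiquitinase docked on the regulatory particle, rose by a log2 fold change of 0.25 (adjusted p = 0.0189, lost without carnosine 1 or 2), and Txnl1, a thioredoxin-like protein bound there, by 0.17 (adjusted p = 0.0190, lost without saline 2 or 3 or carnosine 1 or 2). Zfand2a, a stress-induced adaptor, fell by 0.24 (adjusted p = 0.0491), a call kept only without saline 1. The subunits outside the naming rule did not pass: Sem1, which belongs to the regulatory particle, had a log2 fold change of 0.20 (adjusted p = 0.0725) and the ubiquitin receptor Adrm1 -0.05 (adjusted p = 0.674).

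The transcription factors Nfe2l1 and Nfe2l2 pair with small Maf proteins, and Nfe2l1 is known to raise proteasome genes when proteasome activity falls. Of 7 genes of this axis tested with edgeR, 0 rose and 2 fell. At an unadjusted p under 0.05, 1 (Ngly1) was higher and 3 lower, and DESeq2 and limma called 0 higher. Mafk, a small Maf protein, measured 239, 247 and 230 CPM with saline and 189, 181 and 186 CPM with carnosine, a gap several times the spread (log2 fold change -0.37, adjusted p = 0.000698). Ddi2, the protease that releases Nfe2l1, fell by 0.13 (adjusted p = 0.0461), a call lost without any single library. Nfe2l1 measured 41.1, 128 and 40.0 CPM with saline and 40.4, 116 and 50.6 CPM with carnosine (adjusted p = 0.989). The second library of each group was high, so the groups could hardly be compared for this gene. Nfe2l2 had a log2 fold change of -0.20 (adjusted p = 0.0562), and Nfe2l3 had 0 counts in every library.

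Of 5 ubiquitin genes and activating enzymes, 1 rose and 2 fell. Ubb, which encodes a chain of ubiquitin units, measured 1018, 1041 and 1038 CPM with saline and 943, 923 and 946 CPM with carnosine (log2 fold change -0.14, adjusted p = 0.00360). Its groups were far apart. Uba1, the main ubiquitin-activating enzyme, rose by 0.15 (adjusted p = 0.00947), while Uba6, the alternative one, fell by 0.31 (adjusted p = 0.0172, kept only without carnosine 1). Of 9 shuttle factors and genes of the p97 complex, which deliver substrates to the proteasome, 3 rose and 0 fell with edgeR, and 0 were lower at an unadjusted p under 0.05 or with DESeq2 or limma. These were the p97 unfoldase itself, Vcp (log2 fold change 0.14, adjusted p = 0.0120), its cofactor Nploc4 (0.22, adjusted p = 0.0285, kept only without carnosine 1) and the shuttle Rad23b (0.17, adjusted p = 0.0161, lost without saline 1 or carnosine 3). Mafk, Ubb, Uba1 and Vcp were called whichever library was left out.

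Promoters were examined as a planned description, with no test. RefSeq entries on GRCm38.p6 (250 bases before to 50 after the transcript start) were matched for 38 of the 46 genes other than Psmc3ip, with 41 promoters in all. The 4 called genes with the smallest p that had an entry are shown 5′ to 3′, in the direction of transcription. Capitals mark matches, on either strand, to the 5 motifs searched: TGANNNNGC (antioxidant response element core), TGACTCA (AP-1), CCAAT (NF-Y box), CCGGAAG (ETS) and the palindrome of nuclear respiratory factor 1. Psma2 is at chr13:14612992-14613291, Psmd1 at chr1:86064369-86064668, Psma6 (the start nearest its principal transcript) at chr12:55398575-55398874 and Psmc5 at chr11:106255935-106256234, all on the plus strand.
Psma2: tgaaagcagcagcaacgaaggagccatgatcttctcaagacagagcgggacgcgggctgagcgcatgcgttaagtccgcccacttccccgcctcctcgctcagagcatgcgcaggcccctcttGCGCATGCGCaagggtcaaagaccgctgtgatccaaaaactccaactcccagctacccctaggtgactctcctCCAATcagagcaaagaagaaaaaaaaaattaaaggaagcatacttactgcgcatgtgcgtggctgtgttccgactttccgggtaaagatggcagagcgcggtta
Psmd1: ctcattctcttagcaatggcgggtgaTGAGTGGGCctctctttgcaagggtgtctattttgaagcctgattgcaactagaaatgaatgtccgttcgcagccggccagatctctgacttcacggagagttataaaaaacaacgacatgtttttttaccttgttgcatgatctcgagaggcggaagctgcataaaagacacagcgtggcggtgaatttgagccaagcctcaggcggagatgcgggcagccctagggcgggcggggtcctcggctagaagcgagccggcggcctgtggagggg
Psma6: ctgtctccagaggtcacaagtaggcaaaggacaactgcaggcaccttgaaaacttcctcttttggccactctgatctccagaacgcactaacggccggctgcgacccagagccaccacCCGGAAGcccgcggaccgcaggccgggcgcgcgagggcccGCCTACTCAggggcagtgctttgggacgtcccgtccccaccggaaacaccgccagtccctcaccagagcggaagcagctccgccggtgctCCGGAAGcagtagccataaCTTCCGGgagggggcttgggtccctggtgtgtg
Psmc5: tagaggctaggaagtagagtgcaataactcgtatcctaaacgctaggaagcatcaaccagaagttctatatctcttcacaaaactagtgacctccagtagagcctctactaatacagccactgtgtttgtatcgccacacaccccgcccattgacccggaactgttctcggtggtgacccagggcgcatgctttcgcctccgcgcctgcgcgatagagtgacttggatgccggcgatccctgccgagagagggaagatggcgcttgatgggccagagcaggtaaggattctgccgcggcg
In Psma2 the capitals are the palindrome at position -127 from the start and a CCAAT box at -54, and in Psmd1 an antioxidant core match at -224. In Psma6 they are an antioxidant core match on the other strand at -92 and ETS matches at -132, -2 and 18, the last on the other strand. Psmc5 held no match to these letters in this window.

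The antioxidant core was found in 23 of the 41 promoters (56.1%), against 41.3% of 32851 promoters in the table and 42.9% of 12912 promoters of tested genes. The ETS motif was found in 15 (36.6%), against 8.86% of all promoters and 17.3% of those of tested genes. The ETS motif was in 3 of 11 promoters of called genes and 12 of 30 promoters of the others. By the same split, the antioxidant core was in 5 of 11 and 18 of 30, and the CCAAT box in 6 of 11 and 7 of 30. AP-1 was in 0 of 11 and 1 of 30, and the palindrome in 1 of 11 and 1 of 30. The split counts promoters, not genes. Among the 11, Psma6 enters more than once, with its CCAAT box in the promoter not printed, and Psmb2 and Psmb7 had no entry. The 30 include Psmb11, which could not be tested, and repeated entries of Psmc2 and Psme2. The CCAAT box was in 13 (31.7%, against 37.4% of all), AP-1 in 1 (2.44%, against 5.20%) and the palindrome in 2 (4.88%, against 0.971%). The promoters of the proteasome genes had a median GC content of 57.3%, against 52.7% in the whole table. A match describes letters in a window and is no evidence of binding.

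The 47 genes lay on 16 chromosomes, with 10 on chromosome 11 and 6 each on chromosomes 2 and 14. Of the 46 tested, 11 (23.9%) had a protein-coding neighbour transcribed in the opposite direction from a start within 1000 bases, against 16.6% of 12271 protein-coding genes tested. Psma2 starts 75 bases from Mrpl32, a mitochondrial ribosomal protein gene, which had a log2 fold change of 0.05 (adjusted p = 0.875). Psmc5 starts 75 bases from Ftsj3, an RNA methyltransferase gene, which had 0.09 (adjusted p = 0.145). Neither neighbour was called. Dnajc2, a chaperone gene 32 bases from Psmc2, rose (log2 fold change 0.18, adjusted p = 0.0350), while Psmc2 did not pass.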

How the data were processed

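Per the labels' protocols, poly-A RNA from column-purified total RNA went into stranded libraries read from both ends on a NovaSeq. HISAT2, StringTie, edgeR, CASAVA 1.8 and the build GRCm38 are listed, without order or options, in the submitters' processing notes. No source used here gives the strand setting, the annotation release or the handling of multi-mapping reads.

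Per the file headers, the authors deposited a raw count and an FPKM value per gene and library. Counts were used as deposited. Gene lengths implied by count, FPKM and library total were whole numbers, within 0.05, for 95.4% to 96.4% of values above 20 counts, and the coordinates of the proteasome genes matched GENCODE M21. Replicates of a group differed by more than sampling noise (chi-square per degree of freedom 5.17 to 6.32).

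Counts were scaled by TMM (factors 0.998 to 1.003) and filtered with filterByExpr, leaving 15298 genes. Carnosine was tested against saline in R 4.3.3 with edgeR 4.0.16 (quasi-likelihood F test, two-sided, no covariates). P-values were Benjamini-Hochberg adjusted over all genes kept, with a threshold of 0.05, and all adjusted p-values in the text come from this test unless another is named. Alternatives used DESeq2 1.42.0, limma 3.58.1 (voom, and log2(FPKM + 1) and log2(FPKM + 0.1)), other scalings and filters, a gene length offset, a replicate block and each library left out. Summing Psma5 with its pseudogene and levels per principal transcript were added after the data were seen.

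The genes, roles and pathway lists were chosen with earlier results of these data known, so no p-value is given for a list. Named with every library's value were the called genes and the highest gene per length of each role, and, from the pathway lists, called genes (at most 4 per list) and the immunoproteasome subunits. Some genes of these lists are not reported here. Other genes given per library or named were chosen after their values were seen.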

Additional observations from a re-analysis of the deposited data

How the results depend on the processing

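The 12 genes called kept a positive log2 fold change under all 20 alternatives. Among these, adjusted p of 0.01 and of 0.1 changed only the threshold of the main fit. Signs were therefore fixed there, and no call could be lost at 0.1. Of the 240 values of the 12 genes, 180 stayed past the threshold and 60 did not. The count of proteasome genes called higher was 3 at an adjusted p of 0.01 and 4 to 8 with a library left out. Over all genes, 603 were called higher and 504 lower at 0.01, 1926 lower at 0.1, 813 lower with DESeq2, and 932 to 1009 higher and 801 to 883 lower with a library left out. Of the other pathway genes, 1 rose and 2 fell at 0.01, and 4 rose and 2 to 4 fell with a library left out. Instead of 5, 3 of these fell without a filter, with a gene length offset, with DESeq2, on log2(FPKM + 1), on log2(FPKM + 0.1) and with a replicate block. The median log2 fold change of the proteasome genes was 0.10 with upper quartile scaling, 0.10 on log2(FPKM + 1), 0.13 without a filter and 0.11 to 0.13 with a library left out.

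With a replicate block, 7 proteasome genes, 946 genes higher and 810 genes lower were called. The labels do not say what the numbers share. Deviations of same-numbered libraries, taken over all genes, correlated at -0.05, -0.07 and 0.02. Values near 0 over all genes cannot decide whether the numbers mark shared mice or days. A single gene can still follow the number, as Nfe2l1 was high in the second library of each group. With the block the log2 fold change of Psmc3ip was -0.016.

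Only genes that were not called and lay near 0 changed sign. Psmc3ip was at -0.0024 with relative log expression scaling, -0.015 with upper quartile scaling, -0.0057 with library totals, -0.00034 with a filter of 1 CPM in 3 libraries, -0.0089 with limma-voom, -0.025 on log2(FPKM + 1) and -0.033 on log2(FPKM + 0.1). Without a filter Psmc4 was at 0.0092 and Psmd3 at 0.0073. With a gene length offset Psmg4 was at -0.051 and Psmd3 at 0.012. With DESeq2 Psmc4 was at 0.00019. With a library left out, log2 fold changes ran from -0.053 to 0.022 for Psme1, -0.12 to 0.024 for Psmg3, -0.048 to 0.11 for Psmg4, -0.16 to 0.067 for Psmf1, -0.16 to 0.15 for Psmc3ip, -0.060 to 0.042 for Psmc4, -0.15 to 0.0047 for Psmd5, -0.020 to 0.092 for Psmd4, -0.050 to 0.070 for Psmd3 and -0.10 to 0.043 for Psmb8. The cause was not tested. The log2 fold changes of the genes with the fewest counts among those tested, Psma8 and Psme2b, had SEs of 0.36 and 0.29, and Psmb11, with 2 counts in all, could not be tested.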
